A study of Mus musculus with 4 samples.

Results

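Cxcl1, Cxcl2, Cxcl3, Cxcl5, Cxcr2, S100a8 and S100a9, the genes for neutrophil-attracting chemokines, their receptor and the alarmin pair of neutrophils, were followed across the cell classes of 4 mouse mammary tumours. All 7 symbols were found, each as 1 row, among 31053 mouse features. They were chosen by name as 1 pathway, with UMI counts per cell class and host genotype of these tumours in view, so their levels and differences are given as a description, without a test. H605 is a HER2-positive mammary tumour line. Its cells were injected in the mammary pad of mice of the FVB/NJ strain, and tumours taken at day 14 were digested, freed of red cells and enriched for live cells before droplet-based 3' RNA counting. The 2 groups were WT hosts and hosts without IL1α (IL1α-/-), 2 tumours each, with mice of 6 to 8 weeks per the labels. The injected line was the same in both groups, and the labels put the deletion in the host; 1 line stands for the disease. The labels tell of pairs collected on separate days but not which tumours formed a pair, and p-values below measure only the spread between these samples.

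The chemokines of this set are small secreted proteins made by macrophages, stromal and epithelial cells when NF-kB is active, for example downstream of interleukin 1 receptor or Toll-like receptor signalling. They bind CXCR2, a G protein-coupled receptor on neutrophils, and draw these cells out of bone marrow and blood into tissue. S100A8 and S100A9 are calcium-binding proteins that form calprotectin, one of the most abundant proteins of neutrophil cytoplasm, which acts as an alarm signal when released.

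The 4 chemokine genes lie close together on chromosome 5 of GRCm38 (GENCODE vM21): Cxcl5 at chr5:90759360-90761624, Cxcl3 at chr5:90786103-90789600, Cxcl1 at chr5:90891241-90893115 and Cxcl2 at chr5:90903871-90905938, all on the plus strand. S100a8 (chr3:90668978-90670035, plus strand) and S100a9 (chr3:90692632-90695721, minus strand) are neighbours on chromosome 3, and Cxcr2 lies at chr1:74153989-74161246 on the plus strand. All are protein-coding. A RefSeq table of promoters (GRCm38.p6, from 250 bases before to 50 bases after the start site) held 6 of the 7 genes, not Cxcl5. The NF-kB consensus, searched on both strands, had matches in Cxcl1, Cxcl2 and Cxcl3 and in 2779 of all 32851 promoters of 300 bases (8.46%). In these 3 genes it had the same letters, GGGAATTTCC, which were in 29 promoters in all (0.0883%, both strands). The letters were picked because the 3 members share them, so their rarity is a description; an overlapping match of the consensus lies 1 base further on, on the opposite strand. The stretches from 110 to 31 bases before the RefSeq start site are shown 5′ to 3′ on the plus strand, with the shared letters in capitals, to show them beside the bases around them. A match is a description of letters and not a measured site.
Cxcl1: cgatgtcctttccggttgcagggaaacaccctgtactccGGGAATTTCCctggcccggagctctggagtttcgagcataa
Cxcl2: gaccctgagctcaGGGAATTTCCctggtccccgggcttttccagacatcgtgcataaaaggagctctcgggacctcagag
Cxcl3: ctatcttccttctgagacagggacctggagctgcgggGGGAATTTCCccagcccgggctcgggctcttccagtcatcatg
These are chr5:90891135-90891214, chr5:90903789-90903868 and chr5:90785991-90786070, and the first capital lies 71, 97 and 73 bases before the RefSeq start site. That site lies 28 bases downstream of the GENCODE start given above for Cxcl2 and within 4 bases of it for Cxcl1 and Cxcl3. Outside the promoters the transcripts of Cxcl2 and Cxcl3 are alike in part. Of 2159 windows of 50 bases in Cxcl2 transcripts, 126 (5.84%) also occur in another gene, Cxcl3 among them, so reads from such stretches could not be told apart; no window of Cxcl1, S100a8 or S100a9 occurs in another gene.

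The libraries of WT replicate 1, WT replicate 2, IL1α-/- replicate 1 and IL1α-/- replicate 2 held 23464120, 29001333, 6705368 and 15298532 unique molecular identifiers (UMIs, each a captured transcript). After calling, 3864, 3852, 3130 and 3220 cells remained, with median depths of 3099.5, 4193.5, 1349 and 2896 UMIs. IL1α-/- replicate 1 was therefore the shallowest library, and levels are given in CPM (UMIs of a gene per 1000000 UMIs of the class) or from cells thinned to equal depth. Il1a, the gene missing from the knockout hosts, had 64 and 109 UMIs in cells of the WT tumours and 1 and 0 in the IL1α-/- tumours. Pairs of libraries shared 0 to 5 cell barcodes, where 1.48 to 2.19 would be shared by chance. Each cell was placed in a class by markers that leave the 7 genes out, and 6.46% to 8.21% of cells fitted no class. The ending "-like" stands for a class made from markers, with no annotation by the authors. Phagocyte-like means monocytes and macrophages together, and T/NK-like means T cells and natural killer cells together.

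The members' UMIs lay in different cell classes. Over the 4 tumours together, neutrophil-like cells, 122 of all called cells, held 91.3% of the S100a8, 93.5% of the S100a9 and 82.3% of the Cxcr2 UMIs. In IL1α-/- replicate 2 they held 58.3%, 71.2% and 44.4%, and 39.6% of its S100a8 UMIs were in cells without a class. Of 10042 Cxcl2 UMIs 62.6% were in phagocyte-like and 13.8% in neutrophil-like cells; the phagocyte-like share ran from 47.5% in WT replicate 1 to 74.3% in IL1α-/- replicate 1. Of 1729 Cxcl1 UMIs 59.3% were in fibroblast-like, 18.9% in tumour epithelial-like and 14.8% in phagocyte-like cells. In WT replicate 1 the order was another, with 49.1% in tumour epithelial-like and 35.3% in fibroblast-like cells, while fibroblast-like cells held 65% to 70.8% in the other tumours. Cxcl5, with 125 UMIs in all, was in fibroblast-like (44.8%) and tumour epithelial-like cells (37.6%), and none of its UMIs came from phagocyte-like or neutrophil-like cells. Cxcl3 was the least concentrated, and 32.2% of its 146 UMIs were in cells without a class.

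**Figure D1:**
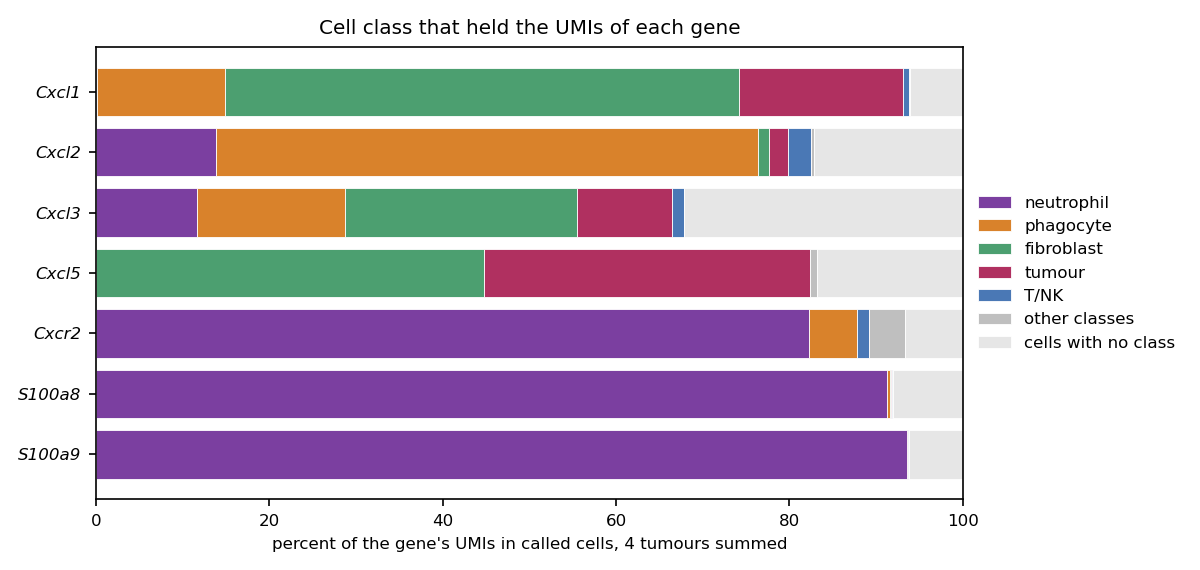
Each bar divides the UMIs of a gene in called cells, summed over the 4 tumours, by the cell class that held them (x axis, percent). The S100a8, S100a9 and Cxcr2 bars are 91.3%, 93.5% and 82.3% neutrophil-like, the Cxcl2 bar is 62.6% phagocyte-like and the Cxcl1 bar is 59.3% fibroblast-like.

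Cxcl2, which encodes a chemokine that macrophages release early in inflammation, was higher in the phagocyte-like cells of both IL1α-/- tumours. Its level was 627 and 438 CPM in WT replicates 1 and 2, from 1134 and 1523 UMIs, and 2314 and 2080 CPM in IL1α-/- replicates 1 and 2, from 629 and 2999 UMIs. The groups did not overlap: both knockout samples were far above both WT samples. Group means were 533 ± 134 CPM in WT and 2197 ± 166 in IL1α-/- (SD, n = 2 each). In the edgeR quasi-likelihood fit over all genes the log2 fold change was 2.05 (SE 0.25).

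Cxcl1, whose product binds the same receptor, was also higher in both IL1α-/- tumours in these cells, at a far lower level. It had 14.4 and 29.9 CPM in the WT tumours and 66.2 and 74.9 in the IL1α-/- tumours, from 26, 104, 18 and 108 UMIs. The groups did not overlap here either; the exact Poisson 95% interval was 39.3 to 105 in IL1α-/- replicate 1 and 24.4 to 36.2 in WT replicate 2. The log2 fold change was 1.67 (SE 0.36), and it ranged from 1.26 to 2.37 when a single tumour was left out. Intervals here and below cover counting error only.

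Cxcl1 and Cxcl2 were the only 2 members with enough UMIs to be fitted in phagocyte-like cells. Cxcl2 passed an adjusted p of 0.05 and Cxcl1 did not, while 0.0808% of the 8668 genes fitted there passed; both were among the genes without overlap between groups, as were 48% of all genes fitted. Cxcl1 passed in 6 of 15 alternative fits, among them DESeq2 and the fits without WT replicate 2 or without IL1α-/- replicate 1. Since the list was drawn up with this contrast in view, nothing is read from these counts. Cxcl3 was close to the limit of detection in the class, with 3, 6, 1 and 15 UMIs (1.66, 1.72, 3.68 and 10.4 CPM), and 7 of the 15 in IL1α-/- replicate 2 were in a single cell.

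More of the phagocyte-like cells of IL1α-/- tumours carried Cxcl2. A Cxcl2 UMI was seen in 80 of 361 and 98 of 635 cells of the WT tumours (22.2% and 15.4%) and in 65 of 137 and 178 of 327 cells of the IL1α-/- tumours (47.5% and 54.4%). With every cell thinned to 1000 UMIs, which left out 38, 104, 30 and 27 shallower cells, the shares were 17.3% and 11.7% in WT against 45.8% and 44.0% in IL1α-/-. In T/NK-like cells thinned the same way the shares were 0.839%, 0.269%, 0.306% and 0.227%, far below those of phagocyte-like cells in every tumour. The median depths before thinning were 3987, 4346, 1717 and 3610 UMIs in phagocyte-like cells and 2833, 4120, 1272 and 2721 in T/NK-like cells.

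**Figure D2:**
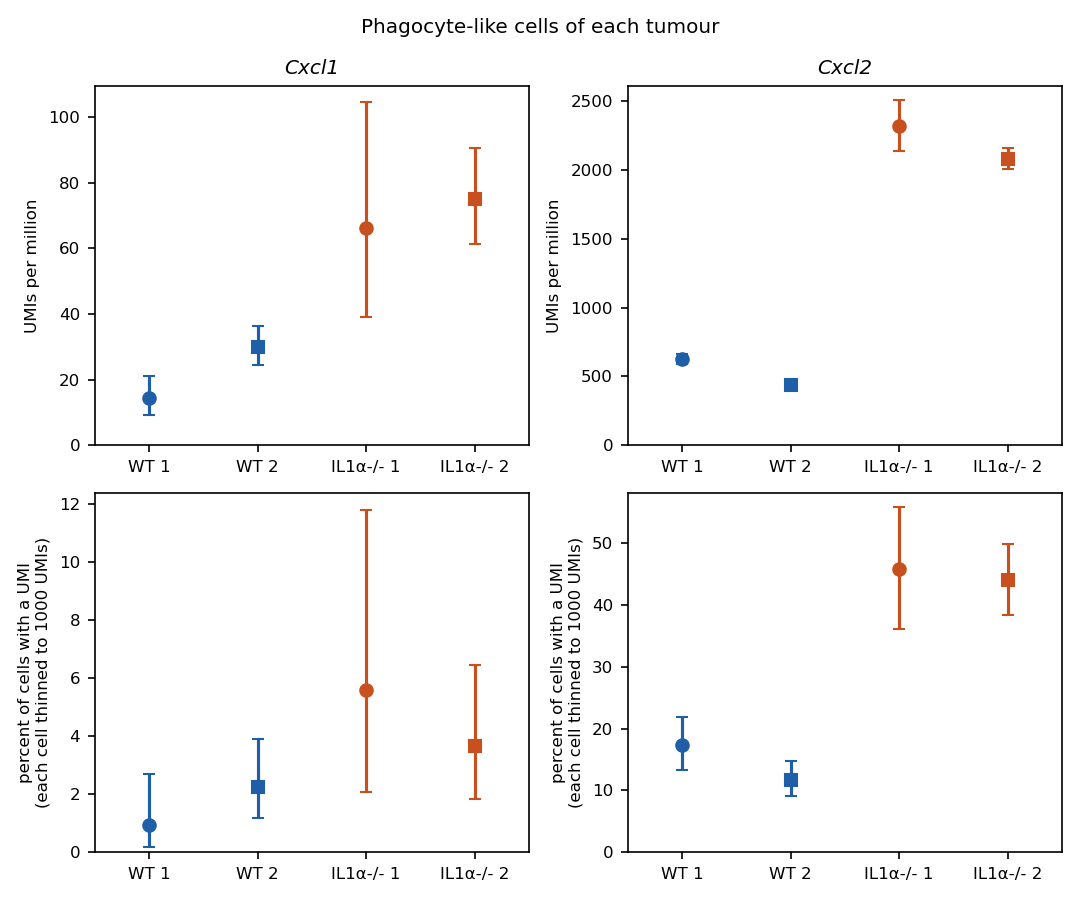
Levels in CPM (upper row) and percent of cells with a UMI after thinning to 1000 UMIs per cell (lower row) for Cxcl1 and Cxcl2 in phagocyte-like cells of each tumour; points are samples and bars are exact 95% counting intervals. Both IL1α-/- samples lie above both WT samples in every panel, and for Cxcl1 the intervals of the lower row overlap.

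A few cells carried most of the Cxcl2 in WT tumours. The top 10% of phagocyte-like cells by Cxcl2 held 86.5% and 95.9% of its UMIs in the WT samples but 65.8% and 62.7% in the IL1α-/- samples. The highest single cells overlapped between groups, at 181 and 265 Cxcl2 UMIs per 10000 in WT and 171 and 208 in IL1α-/-. The median cell had none in 3 samples and 2.74 per 10000 in IL1α-/- replicate 2.

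Most phagocyte-like cells with Cxcl1 also held Cxcl2. In the first 3 samples all 11, 15 and 9 phagocyte-like cells with a Cxcl1 UMI also had Cxcl2, and in IL1α-/- replicate 2 it was 29 of 33. Among the other phagocyte-like cells 19.7%, 13.4%, 43.8% and 50.7% had Cxcl2. The cells with Cxcl1 were also deeper, for example with a median of 6770 against 3871 UMIs in WT replicate 1; the part of depth in this was not tested.

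The mix of phagocyte-like cells also differed between hosts. C1qa, C1qb and C1qc, complement genes typical of mature tissue macrophages, made up at least 0.1% of a cell's UMIs in 61.5% and 62.8% of WT phagocyte-like cells but 31.4% and 35.2% of those from IL1α-/- hosts, a split chosen after the data were seen. In C1q-high cells Cxcl2 stood at 405 and 309 CPM in WT and at 2380 and 1269 in IL1α-/-. In C1q-low cells it was 1087 and 645 CPM in WT and 2270 and 2559 in IL1α-/-. Within both subsets the 2 groups did not overlap. The share of all genes without overlap was not counted within the subsets, and it was 48% in phagocyte-like cells as a whole. In both WT tumours and in IL1α-/- replicate 2 Cxcl2 was higher in C1q-low cells. In IL1α-/- replicate 1 the 2 subsets lay within each other's counting intervals.

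**Figure D3:**
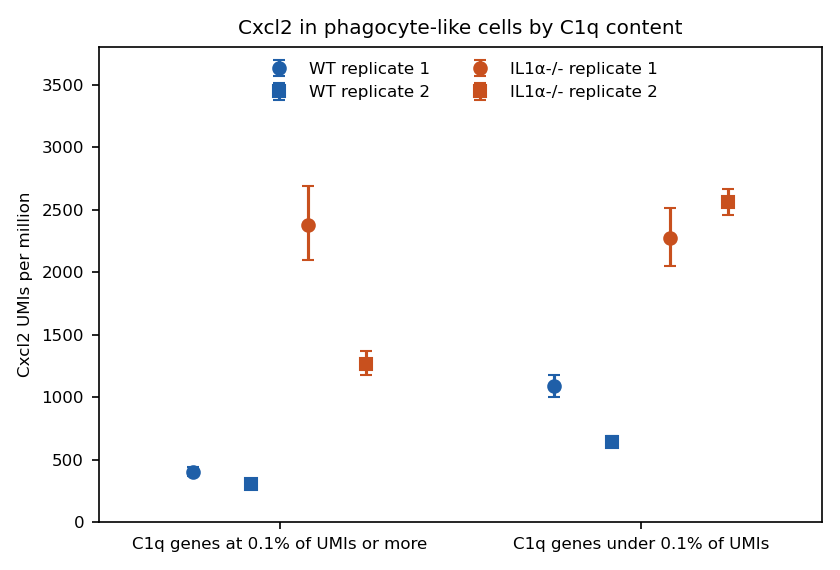
Cxcl2 in CPM (y axis) in phagocyte-like cells split by their content of C1q genes (x axis), 1 point per tumour with exact 95% counting intervals. In both subsets the IL1α-/- samples (1269 to 2559 CPM) lie above the WT samples (309 to 1087).

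S100a8, S100a9 and free RNA were low in phagocyte-like cells. Csf3r, a marker of the neutrophil gate, was at 54.1 and 55.1 CPM there in WT and at 70.6 and 41.3 in IL1α-/-. Neutrophil-like cells with few S100a8 and S100a9 UMIs would not be seen by these 2 genes, and their part was not tested. S100a8 was at 1.66, 4.31, 3.68 and 3.47 CPM in phagocyte-like cells and S100a9 at no more than 0.862, although neutrophil-like cells held both at 20050 CPM or more. Free RNA, measured in barcodes of at most 100 UMIs and bounded by T/NK, fibroblast and tumour markers in these cells, could have given at most 8.27, 8.85, 0.789 and 6.47 of the Cxcl2 UMIs.

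Fibroblast-like cells had the highest mean Cxcl1 of any class, with ranges that overlapped those of phagocyte-like cells. In IL1α-/- replicate 1 phagocyte-like cells were the higher. The level in fibroblast-like cells was 79.7 and 196 CPM in WT and 53.8 and 156 in IL1α-/-, from 170, 513, 47 and 295 UMIs. The groups overlapped, replicate 2 was the higher sample in both, and the means were 138 ± 82 and 105 ± 72 (SD, n = 2 each). The log2 fold change was -0.36 (SE 0.64), and it ran from -1.37 without IL1α-/- replicate 2 to 0.46 without WT replicate 2. Cells with a Cxcl1 UMI made up 16.1% and 21.8% in WT and 8.04% and 36.3% in IL1α-/-, and after thinning 4.75% and 11.3% against 5.12% and 14.2%.

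Cxcl5, whose protein is made by epithelial and stromal cells, was the member that was lower in fibroblast-like cells of IL1α-/- hosts. It had 7.5 and 13.4 CPM in WT and 2.29 and 1.59 in IL1α-/-, from 16, 35, 2 and 3 UMIs. The groups did not overlap, but the knockout values rest on 5 UMIs in all. The log2 fold change was -2.47 (SE 0.61) and stayed between -2.81 and -1.94 when a single tumour was left out. Of the 3 members fitted in fibroblast-like cells Cxcl5 alone had groups without overlap, where 37.3% of all genes fitted had none, and 0 of the 3 were past the threshold, as were 0% of all 9878 genes (edgeR; 513 at an unadjusted p under 0.05, and 14 past the threshold with DESeq2).

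Cxcl2 in fibroblast-like cells had 17 and 63 UMIs in WT and 10 and 41 in IL1α-/- (7.97, 24, 11.4 and 21.7 CPM), and free RNA could have given all of them in replicate 1 of both groups. The groups overlapped, and the log2 fold change of 0.10 (SE 0.61) ran from -0.51 to 1.15 when a tumour was left out. Cxcl3 in this class came from a single cell of WT replicate 2 that held all 39 UMIs.

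Tumour epithelial-like cells also carried chemokines in WT hosts. Cxcl1 had 236 and 88 UMIs in the 2 WT tumours (50.3 and 20.9 CPM) and 3 and 0 in the IL1α-/- tumours (18.5 and 0 CPM). Cxcl5 had 14 and 33 UMIs against 0 and 0. Only 27 and 2 cells of this class were called in the IL1α-/- tumours, against 369 and 230 in WT, so no difference could be fitted. In the 27 cells of IL1α-/- replicate 1 a count of 3 UMIs stands for 18.5 CPM, above both WT values of Cxcl5 (2.98 and 7.85). A count of 0 for Cxcl5 there therefore does not show a lower level. Cxcl2 in tumour cells differed between the WT samples themselves, with 217 UMIs in replicate 1, 61 of them in a single cell, and 4 in replicate 2.

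**Figure D4:**
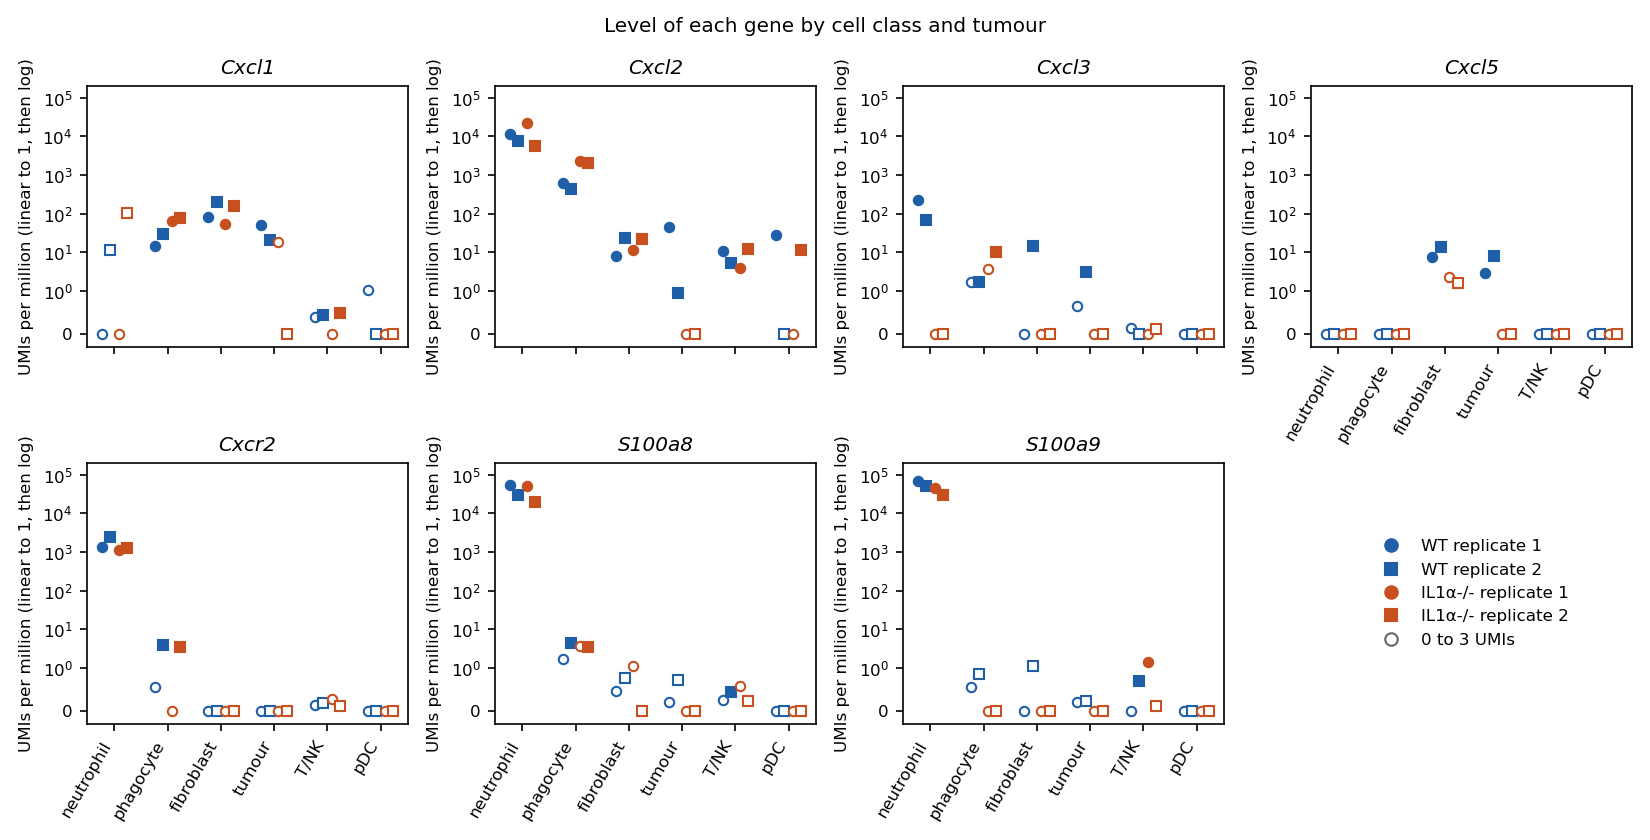
Level of each gene in CPM (y axis, linear up to 1 and logarithmic above) in 6 cell classes (x axis; pDC, plasmacytoid dendritic-like), 1 point per tumour, open where 3 UMIs or fewer were counted. Cxcl2 is higher in both IL1α-/- samples than in both WT samples among phagocyte-like cells, while the S100a8 and S100a9 points at 20050 CPM or more are all neutrophil-like.

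Neutrophil-like cells made up a smaller share of called cells in both IL1α-/- tumours. They numbered 45 and 61 in WT (1.17% and 1.58% of cells) and 6 and 10 in IL1α-/- (0.192% and 0.311%). With 2 samples a group an exact two-sided permutation test cannot give a p below 0.333, and fewer than 20 cells in a sample kept the class out of the fit. The digestion, red cell lysis and live-cell enrichment can set such shares; their part was not tested. Ly6g, a defining mouse neutrophil marker, was nearly absent, with 1 UMI in all 122 cells, while Csf3r, the receptor for granulocyte colony-stimulating factor, had 106, 215, 7 and 23 UMIs. Not every cell of the class held the alarmins: 13 of the 45 cells of WT replicate 1 had no S100a8 or S100a9 UMI, and 13 carried Ccr3, Siglecf or Alox15.

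S100a8 and S100a9 were the most abundant members wherever neutrophil-like cells were found. S100a8 stood at 53120 and 29230 CPM in WT and 49640 and 20050 in IL1α-/-, from 2551, 2588, 219 and 193 UMIs. S100a9 stood at 69960 and 50040 in WT and 44420 and 28980 in IL1α-/-, from 3360, 4430, 196 and 279 UMIs. For S100a8 the groups overlapped, and for S100a9 both knockout values lay below both WT values. The knockout values come from 6 and 10 cells. The share of all genes without overlap was not counted in this class. It was 37.3% in fibroblast-like, 48% in phagocyte-like and 57.4% in T/NK-like cells. In IL1α-/- replicate 1 a single cell held 67.6% of the S100a8 and 75% of the S100a9 UMIs of the class.

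Cxcr2, the receptor, had 1312 and 2451 CPM in neutrophil-like cells of WT and 1133 and 1246 in IL1α-/-, from 63, 217, 5 and 12 UMIs. The knockout values lay below both WT values, but the counting interval of IL1α-/- replicate 1, from 368 to 2645, held them all. Here too the share of all genes without overlap was not counted in the class. Mast/basophil-like cells, 22 in all, came next with 1, 11, 0 and 3 UMIs, and phagocyte-like cells were at most at 4.02 CPM. No other named class had more than 5 UMIs.

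Cxcl2 was also a transcript of neutrophil-like cells. Its level in neutrophil-like cells was 11760 and 7546 CPM in WT and 22440 and 5505 in IL1α-/-, above that of phagocyte-like cells in every tumour, and the groups overlapped. In IL1α-/- replicate 1 a single cell held 58.6% of the 99 UMIs. The 17, 11, 2 and 3 cells with fewer than 10 S100a8 and S100a9 UMIs held Cxcl2 as well, at 14110, 12040, 49790 and 10810 CPM. The 28, 50, 4 and 7 cells with 10 or more were at 11070, 6520, 12630 and 3827. The 49790 CPM of IL1α-/- replicate 1 stand for 58 UMIs, those of that single cell. In WT replicate 1 the cells under 10 also held Ccr3 and Alox15, at 1283 and 825 CPM, against 0 and 0 in the others. Cxcl1 was at 0, 1, 0 and 1 UMIs in the class, and Cxcl3 at 11, 6, 0 and 0.

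T/NK-like cells, the largest class, held Cxcl2 at 10.9 and 5.35 CPM in WT and 3.99 and 12 in IL1α-/-. Free RNA could have given 25.5 of 84, 19.4 of 62, 9.59 of 14 and 24.1 of 101 of these UMIs, and single cells held 26 of the 62 and 47 of the 101. Cxcl2 was the only member fitted there, at a log2 fold change of 0.18 (SE 0.48). Its groups overlapped, whereas 57.4% of all genes fitted had none; 5.08% of them passed the adjusted p and Cxcl2 did not. S100a8 and S100a9 stayed at or under 1.42 CPM in these cells, within what free RNA could give in all but IL1α-/- replicate 2, where S100a8 had 2 UMIs. In plasmacytoid dendritic-like cells no member had enough UMIs to be fitted, and 1.2% of the 5598 genes fitted passed.

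By mean level over the 4 tumours, Cxcl2 ran from neutrophil-like (11810 CPM) to phagocyte-like (1365) and then fibroblast-like cells (16.3), and the ranges of the first 3 did not overlap. Below these, tumour epithelial-like, plasmacytoid dendritic-like and T/NK-like cells (11.8, 9.82 and 8.06) overlapped. Cxcl1 ran from fibroblast-like (121) to phagocyte-like (46.4) cells with overlapping ranges, and T/NK-like cells were at 0.324. For Cxcr2, S100a8 and S100a9 the neutrophil-like range lay above that of every other class. A 3' count takes about a single tag per transcript, so the levels of different genes can be set side by side without a length term.

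Over the sums of 24 class and tumour combinations in 8 classes, the genes whose log2 levels were most like those of a member were described by Pearson's r; the points share libraries and depth, and r is a description only. Cxcl2 was most like Il1rn (r = 0.94), the interleukin 1 receptor antagonist gene, then Cd300ld and Ifitm6 (both 0.92). Cxcl5 was most like Cfi (0.98), the gene of complement factor I, and Tnfrsf11b (0.97), the gene of osteoprotegerin, then Adamts9 (0.95). Cxcl1 was most like Creb5 (0.95), Lhfpl2 (0.94) and Zfyve9 (0.93), and Cxcl3 most like Kcnj2 (0.90), Tgm1 (0.90) and S100a8 (0.89). With 10 CPM in place of 1 added before the log, the genes most like 3 members changed in the main. For Cxcl1 they were Lhfpl2, Arhgap23 and Rassf8. For Cxcl3 they were Mmp9, a gate marker, Kcnj2 and Siglecf, and for S100a8 they were S100a9, Wfdc21 and Siglecf. Cxcr2, S100a8 and S100a9 were like each other (0.98 to 0.99), with Gm5483 and Wfdc21, a gate marker, beside them. A sum needed at least 20 cells, so neutrophil-like cells entered from the WT tumours only (45 and 61 cells). The r of genes that lie mostly in this class therefore rests largely on the WT points. Cxcl1 was closer to Cxcl5 (0.64) than to Cxcl2 (0.36), and Cxcl2 was closer to Cxcl3 (0.78).

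Other genes of the pathway were followed as 5 lists of 98 genes. In phagocyte-like cells 0 of 67 fitted list genes passed the adjusted p (edgeR), as against 7 of all 8668 genes; 1178 of all genes had an unadjusted p under 0.05. Of the 22 fitted NF-kB inducers and feedback genes 16 had a positive log2 fold change, with a median of 0.60 against -0.02 over all genes. Il1a itself (-5.35, SE 0.85) and Il6 (1.49, SE 0.82) were farthest from 0 in that list. Near the threshold were Tnfaip3, an NF-kB inhibitor named here after its value was seen (1.37, SE 0.21, adjusted p = 0.0631, edgeR), and Ptgs2, the inducible cyclooxygenase (1.42, SE 0.23, adjusted p = 0.0639). Tnfaip3 was at 119 and 108.1 CPM in WT against 318 and 275 in IL1α-/-. The 16 fitted genes of neutrophil growth, adhesion and chemoattractant receptors had a median of 0.51, with Lcn2 (-3.61, SE 1.06) and Ptgs2 farthest from 0. The 13 Lcn2 UMIs of WT replicate 1 were within the 34.9 that free RNA could have given, and the 32 of WT replicate 2 stood beside 27.6. Among receptors Cxcr4 (1.53, SE 0.35) and Ccrl2 (0.75, SE 0.32), and among other S100 genes and alarmin receptors Cd33 (-2.11, SE 0.51) and Bsg (0.76, SE 0.25), were farthest from 0 without passing. Other chemokines had a median of 0.16 over 13 genes, with Cxcl10 at 1.24 (SE 1.02) and Cxcl14 at -1.16 (SE 0.49).

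In fibroblast-like cells 0 of 54 fitted list genes passed the threshold. The other chemokines there had a median log2 fold change of -0.36 over 11 genes, against -0.01 over all genes. Cxcl14, a chemokine of stromal cells, was at 407 and 379 CPM in WT and 49.2 and 36.2 in IL1α-/- (-3.21, SE 0.31, edgeR adjusted p = 0.214), and Cxcl13 had 402 in WT replicate 1 but 1.55 in WT replicate 2. The NF-kB list there had a median of 0.07 over 19 genes. Lcn2, an iron-carrier binding protein of neutrophils and epithelium, was at 9.88 and 6.58 against 1.12 and 1.65 (-2.44, SE 0.62); free RNA could have given 78.3 and 28.7 UMIs in WT, more than the 21 and 17 counted. Ccrl2 (2.04, SE 0.56), Ackr3 (1.35, SE 0.68), S100a4 (-1.13, SE 0.49), S100b (-0.64, SE 0.49), Mmp9 (-1.87, SE 0.87), Irak2 (1.71, SE 0.60) and Zfp36 (0.76, SE 0.47) were the others farthest from 0 in their lists.

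In T/NK-like cells 9 of 65 fitted list genes passed the adjusted p (edgeR), 6 higher and 3 lower in IL1α-/-, beside 5.08% of all 11043 genes fitted there. Ccl5, a chemokine of activated T and NK cells, rose by a log2 fold change of 2.47 (SE 0.29), and Xcl1, which attracts dendritic cells, fell by 2.36 (SE 0.30). S100a4 (1.5, SE 0.20) and S100a6 (1.17, SE 0.17) rose, as did the chemokine receptor gene Cxcr6 (0.91, SE 0.16), Irak2 (1.51, SE 0.22), a kinase adaptor of interleukin 1 signalling, and Tnfaip3 (1.30, SE 0.24). Adjusted p-values of the 9 ran from 0.00917 for Ccl5 to 0.0476 for Il17a. Il17a, a cytokine that induces neutrophil chemokines, fell by 1.36 (SE 0.31). Lcn2 also passed (-5.63, SE 0.96), but it is a leading gene of tumour epithelial-like cells, which were fewer in the IL1α-/- tumours. Its UMIs in T/NK-like cells were 110 and 61 in the WT tumours, against 2 and 0 in the IL1α-/- tumours. Free RNA could have given at most 108 and 60.5 of those in WT, and its part was not tested. The 10 tumour markers summed to 24.5 and 18 CPM in these cells in WT and to 5.41 and 5.81 in IL1α-/-, where 8 of the 10, Krt8 among them, were at 0. No list gene passed when either WT tumour was left out. The list medians ran from -0.31 (other chemokines) to 0.18 (other S100 genes and alarmin receptors), against -0.01 over all genes. In plasmacytoid dendritic-like cells Tnfaip3 rose (1.76, SE 0.30, adjusted p = 0.0153, edgeR), the sole call among 36 fitted list genes, beside 1.2% of all genes fitted there; without WT replicate 1, 27 of all genes passed in place of 67. Among those farthest from 0 in the other lists there were S100a4 (2.19, SE 0.57), S100a11 (0.92, SE 0.21), Ccl3 (-1.57, SE 0.70), Ccl4 (-0.47, SE 0.39), Ccr2 (-0.56, SE 0.22), Cxcr3 (-0.36, SE 0.30) and Icam1 (-0.80, SE 0.44).

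Much of the Cxcl2 of 1 library lay in barcodes too small to be called cells. Cxcl2 had 5213 and 3672 UMIs in the WT libraries and 1404 and 5321 in the IL1α-/- libraries (222, 127, 209 and 348 CPM of the library). In WT replicate 1, 43.6% of them were in barcodes with more than 100 and fewer than 500 UMIs, against 6.51%, 16% and 8.8% in the other libraries. With barcodes from 200 UMIs taken in, the Cxcl2 difference in phagocyte-like cells was 2.03 (SE 0.25). In the 249 barcodes with at least 200 and fewer than 500 UMIs that met the neutrophil markers in WT replicate 1, 2323 UMIs were Retnlg, 694 Cxcl2 and 92 Ccr3, the eotaxin receptor gene, while S100a8 had 0, S100a9 had 6 and Csf3r and Cxcr2 had 0. The other libraries had 23, 21 and 13 such barcodes.

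**Figure D5:**
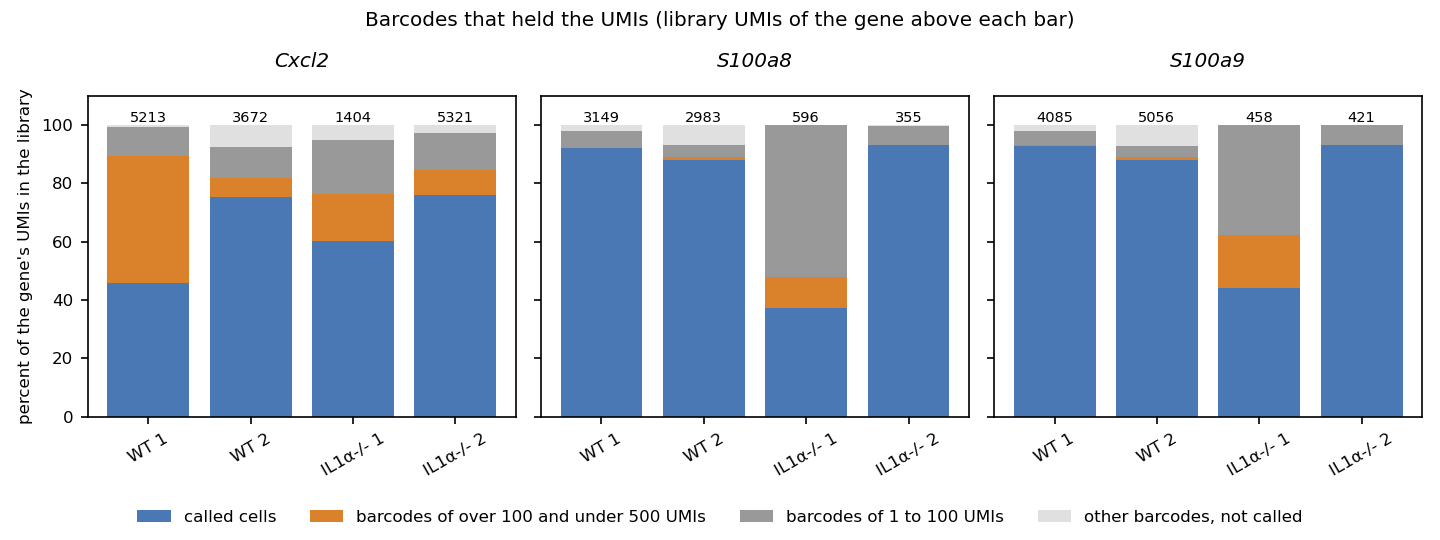
Percent of the library's UMIs of Cxcl2, S100a8 and S100a9 (y axis) that lay in called cells, in barcodes with more than 100 and fewer than 500 UMIs, in barcodes of up to 100 UMIs and in other barcodes; the number above each bar is the gene's UMIs in that library. Called cells held 37.4% of S100a8 in IL1α-/- replicate 1 and 87.9% or more in the other libraries, and 45.8% of Cxcl2 in WT replicate 1.

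S100a8 and S100a9 were lower in both IL1α-/- libraries than in both WT libraries also when every barcode was counted, for S100a8 by little in replicate 1. S100a8 had 3149 and 2983 UMIs in WT (134 and 103 CPM of the library) against 596 and 355 (88.9 and 23.2), and S100a9 had 4085 and 5056 (174 and 174) against 458 and 421 (68.3 and 27.5). The groups did not overlap in CPM for either gene. For S100a8, IL1α-/- replicate 1 (88.9) lay closer to WT replicate 2 (103) than the WT libraries lay to each other (134 and 103). The share of all genes without overlap was not counted for whole libraries, and it was 37.3% to 57.4% in the fitted classes given above. In IL1α-/- replicate 1 called cells held 223 of the 596 S100a8 UMIs, and 311 were in barcodes of at most 100 UMIs, a larger part outside cells than in the other libraries. Cxcl5 had 72 and 82 UMIs in the WT libraries (3.07 and 2.83 CPM) and 3 and 6 in the IL1α-/- libraries (0.447 and 0.392). Its groups did not overlap either, and the share of all genes without overlap was not counted for it either. Tumour epithelial-like cells held 14 and 33 of its UMIs in WT tumours. These cells numbered 369 and 230 in WT against 27 and 2 in IL1α-/-, and the part of cell mix in the difference was not tested.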

How the data were processed

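The deposited values are raw UMI counts per gene and barcode, not normalized, made with Cell Ranger 3.1.0 per the file headers and the submitters' processing notes, which name mm10. The table has 64591 human and mouse features; human features of the 7 genes held 0 UMIs. Barcodes with at least 500 UMIs, 250 genes and at most 20% mitochondrial UMIs were kept if they differed from the free RNA of barcodes with at most 100 UMIs (false discovery rate 0.001). The highest Scrublet scores (scanpy 1.11.5), 0.8% per 1000 cells, were removed as doublets.

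A cell took the class with the largest share of its markers detected, given at least 2 markers and a next share of at most 50% of it; the 7 genes are no markers. Counts were summed per tumour and class and, where every tumour had at least 20 cells, fitted with edgeR 4.0.16 in R 4.3.3 (filterByExpr, TMM, quasi-likelihood test, Benjamini-Hochberg over all genes, threshold 0.05); conventional dendritic-like, neutrophil-like and tumour epithelial-like cells fell short. The script was tested on simulated data. Members' CPM divide by the class's UMIs; those of list genes are TMM-scaled. The limit for free RNA comes from other classes' markers. Poisson intervals and those of shares (Clopper-Pearson) are exact, at 95%.

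The members and lists were chosen with earlier results of these data known. Named are all members, the list genes past the threshold in a class (at most 6 per list) or otherwise the 2 with the largest change, the 3 genes most like a member among those with at least 50 UMIs, and Il1a; exceptions are marked, and 1 list gene that the rule names is not reported here. Alternatives were DESeq2 1.42.0, no TMM, no low-count filter, a replicate term, each tumour left out, at least 1000 UMIs, 10% mitochondrial UMIs, doublets kept, Leiden clusters (leidenalg 0.10.2) made without the members, a gate of 3 markers, thinning to 500 UMIs and a likeness pseudocount of 10 CPM. Barcodes from 200 UMIs, a neutrophil gate without Retnlg, G0s2 and Mxd1, and the splits by C1q and by S100 UMIs were chosen after seeing the data.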

Additional observations from a re-analysis of the deposited data

Results flagged for a closer look

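Barcodes with more than 100 and fewer than 500 UMIs entered no class level and no main fit. Those from 200 UMIs entered an alternative fit, and all entered the counts of whole libraries. In IL1α-/- replicate 1 they held 4 of the genes above the level of both WT libraries. S100a9 stood at 12.5 CPM of the library there (84 UMIs) against 0.725 and 1.72 in WT, and S100a8 at 9.25 (62 UMIs) against 0.0426 and 1.14. Cxcr2 stood at 1.49 (10 UMIs) against 0.0852 and 0.207, and Cxcl3 at 0.746 (5 UMIs) against 0.298 and 0. In IL1α-/- replicate 2 the same 4 genes did not exceed both WT libraries. The 21 barcodes with at least 200 and fewer than 500 UMIs that met the neutrophil markers in IL1α-/- replicate 1 held 61 S100a8, 84 S100a9, 8 Cxcr2 and 14 Csf3r UMIs. A signal in barcodes outside the main comparisons, above the controls, is why these values are given.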

How the results depend on the processing

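Cxcl2 in phagocyte-like cells kept its direction in all 15 alternative fits (log2 fold change 1.84 to 2.30), as did Cxcl1 there (1.26 to 2.37) and Cxcl5 in fibroblast-like cells (-2.89 to -1.94), while Cxcl1 and Cxcl2 in fibroblast-like cells and Cxcl2 in T/NK-like cells changed sign in 2, 4 and 3 of them. Counts of genes past the threshold moved far more; the cause was not tested. In phagocyte-like cells 7 genes passed, against 99 with DESeq2, 486 without the filter on low counts, 51 at 10% mitochondrial UMIs, 28 with doublets kept, 37 with clusters, 12 with the stricter gate, 11 with barcodes from 200 UMIs, 61 with the smaller neutrophil gate and 5 to 216 with a tumour left out. Of the list genes 0 passed there, against 5 with DESeq2, 17 without the filter, 3 at 10% mitochondrial UMIs, 2 with doublets kept, 2 with clusters, 3 with the smaller neutrophil gate and 0 to 8 with a tumour left out. In fibroblast-like cells 0 genes and 0 list genes passed, against 14 and 1 with DESeq2, 219 and 6 without the filter, and 0 and 0 with any tumour left out. In T/NK-like cells 561 genes and 9 list genes passed, against 1733 and 20 without the filter, and 0 to 1003 and 0 to 12 with a tumour left out. In plasmacytoid dendritic-like cells 67 genes and 1 list gene passed, against 42 genes with DESeq2, 202 and 4 without the filter, 103 genes with doublets kept, 130 with clusters, 2 list genes from 1000 UMIs up, and 27 to 159 and 1 to 3 with a tumour left out. The labels number the tumours 1 and 2 and name pairs taken on separate days without tying number to day; deviations of same-numbered tumours correlated at 0.19 in T/NK-like, 0.01 in phagocyte-like, 0.08 in plasmacytoid dendritic-like and 0.39 in fibroblast-like cells. With a replicate block 142 genes and 6 list genes passed in phagocyte-like cells, 1467 and 17 in T/NK-like cells, 282 and 3 in plasmacytoid dendritic-like cells and 0 and 0 in fibroblast-like cells. With that block Cxcl1 was at -0.43 (SE 0.22) in fibroblast-like cells, and in phagocyte-like cells it passed the threshold, which it missed without. Thinning to 500 UMIs gave 11.4% and 7.56% of WT and 35.8% and 31.5% of IL1α-/- phagocyte-like cells with Cxcl2. Depth limits IL1α-/- replicate 1 most: Cxcl1 had 47 UMIs in its fibroblast-like and 18 in its phagocyte-like cells.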
